A study of Homo sapiens with 6 samples.

Results

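The mitochondrial ribosomal protein genes of U87, an established human glioma cell line, were examined in 6 RNA-seq libraries from a study of the RNA-binding protein RBM47. They were chosen by name: protein-coding genes with an MRPL or MRPS symbol, a number and at most one letter A to C, and with 10 or more counts in at least 3 libraries. The tables of 57905 genes held 76 genes with such a symbol, and 75 of them met the count minimum. No expression difference between the groups entered this choice, although the module was picked with earlier results of these data known.

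Mitochondria carry ribosomes of their own, which translate the few proteins encoded by mitochondrial DNA, all of them subunits of the complexes of oxidative phosphorylation. The RNAs of these ribosomes are made inside the organelle, whereas every protein of them is encoded in the nucleus, translated in the cytosol and imported. Many of the proteins have homologues in bacterial ribosomes and the others are specific to mitochondria, and a cell needs both kinds to keep oxidative phosphorylation supplied.

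In all, 3 libraries carry the label siRBM47, both as genotype and as treatment, from cells treated with siRNA at 100 pmol, and 3 libraries are labelled control, with the genotype WT and the treatment entry "no". The transfection protocol, with a lipofectamine reagent in Opti-MEM, is entered for all 6 samples alike. Whether control cells received the reagent or a non-targeting RNA is not stated in the labels. The libraries were made from total RNA of bulk cultures, in which fewer cells of a type and less RNA per cell cannot be told apart. No label tells whether libraries of a group derive from independent cultures; a p-value here therefore covers only library-to-library spread, possibly technical.

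None of the 75 genes differed between the groups past an adjusted p of 0.05 (edgeR), with 0 higher and 0 lower in siRBM47-labelled libraries, beside 12 higher genes (0.0823%) and 20 lower genes (0.137%) among the 14578 genes tested. At an unadjusted p under 0.05, 6 members were lower, which is 8% of them beside 8.94% of all genes, and 5 were higher, which is 6.67% beside 7.15%. DESeq2 called 0 members, beside 3.54% of all genes with an adjusted p, and limma-voom called 0 members, beside 0.233%. The median log2 difference over the members, siRBM47 over control, was 0.01, and over all genes tested it was -0.01. Of the members, 39 had a positive and 36 a negative difference, with quartiles of -0.30 and 0.21 and extremes of -2.0 (MRPL12) and 0.68 (MRPS17). For 56 members (74.7%) the 95% confidence interval of the difference lay within 2-fold in both directions, against 56.9% of all genes tested. For the other 19 members these libraries could not bound the difference to 2-fold.

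That result rests on a control group whose libraries differ among themselves. The library labelled control replicate 3 stood apart from control-labelled replicates 1 and 2, with a chi-square statistic per degree of freedom of 144.83 and 117.05 against these, where replicates 1 and 2 gave 10.74 and siRBM47-labelled pairs 15.11 to 37.11. Total counts were 17580000 to 17880000 in siRBM47-labelled libraries and 15580000 to 18130000 in control-labelled libraries, rounded. RBM47 itself, the target of the small interfering RNA, had 64, 48 and 40 counts in siRBM47-labelled replicates 1 to 3, against 24, 30 and 108 counts in control-labelled replicates 1 to 3. Its counts were thus above those of control-labelled replicates 1 and 2 in every siRBM47-labelled library and below that of control-labelled replicate 3, with a log2 difference of -0.11 (SE 0.50, adjusted p = 0.942) and, without that replicate, 0.76 (adjusted p = 0.156). The label of reduced RBM47 is therefore not borne out by these counts, and every direction below compares libraries as they are labelled. Of the glioma and astrocyte markers, 7 of 7 had counts, with a summed level of 3983 to 5495 CPM in siRBM47-labelled and 3708 to 5722 CPM in control-labelled libraries, although GFAP, a defining astrocyte filament, was at 0.730 ± 0.122 CPM (SD, n = 3) in siRBM47-labelled libraries and at 0.338 to 1.49 CPM in control-labelled libraries. Immune markers summed to at most 0.460 CPM in any library, and 2 of 6 had 0 counts throughout. Neuronal markers summed to 19.0 to 30.4 CPM in siRBM47-labelled and 13.7 to 17.8 CPM in control-labelled libraries, and epithelial markers to 21.7 to 27.8 CPM in siRBM47-labelled and 18.7 to 38.5 CPM in control-labelled libraries. Endothelial markers summed to 6.76 to 8.62 CPM in siRBM47-labelled and 11 to 15 CPM in control-labelled libraries. The 5 fibroblast and mesenchymal markers summed to 3848 to 5535 CPM in siRBM47-labelled and 1606 to 4978 CPM in control-labelled libraries. For all 4 of them that were tested, control-labelled replicate 3 and every siRBM47-labelled library lay above control-labelled replicates 1 and 2, against 20.6% of all genes. The median log2 difference of control-labelled replicate 3 from the other controls was 1.58 over these 4 markers. The part of these markers in the results below was not tested.

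The 75 genes as a whole were lowest in the library labelled control replicate 3. They took 0.460%, 0.472% and 0.490% of all counts in siRBM47-labelled replicates 1 to 3, against 0.546%, 0.523% and 0.354% in control-labelled replicates 1 to 3. Summed levels were 4473, 4825 and 4812 CPM in siRBM47-labelled libraries, against 5755, 5305 and 3412 CPM in control-labelled libraries (CPM, library-scaled counts with TMM factors). The siRBM47-labelled libraries thus lay between the control-labelled ones, below replicates 1 and 2 and above replicate 3.

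Gene by gene the same order was common. The member's lowest level fell in control-labelled replicate 3 for 51 of 75 members (68%), against 25.2% of all genes tested. Its highest level fell in control-labelled replicate 1 for 36 members (48%), against 19.6% of all genes tested. Control-labelled replicate 3 was below the mean of control-labelled replicates 1 and 2 for 67 members (89.3%), against 49.3% of all genes, and the median of that log2 difference was -0.69 over the members and 0.01 over all genes. All siRBM47-labelled libraries lay between control-labelled replicate 3 and control-labelled replicates 1 and 2 for 21 members (28%), against 16% of all genes. The spread among control-labelled libraries was larger than among siRBM47-labelled ones for 56 members (74.7%), against 62.3% of all genes.

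**Figure D1:**
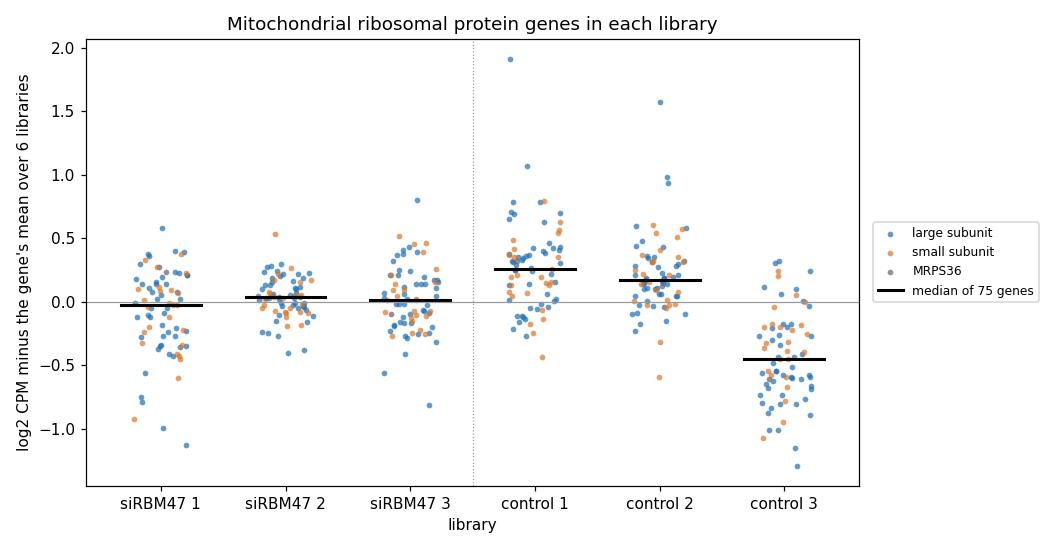
Deviation of each of the 75 genes from its own mean over 6 libraries, in log2 CPM, by library and coloured by ribosomal subunit, with a black line at the median. The medians of siRBM47-labelled replicates 1 to 3 are -0.03, 0.04 and 0.01, and those of control-labelled replicates 1 to 3 are 0.25, 0.17 and -0.45; only 10 genes lie above their own mean in control replicate 3.

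The order of the genes by abundance was similar in all libraries. On the deposited FPKM scale (fragments scaled to transcript length and library size), the members' means over 6 libraries ran from 0.259 (MRPL38) to 139.9 (MRPL41), with a median of 22.7. The median was 27.9 FPKM over 49 proteins of the large subunit and 19.5 FPKM over 25 of the small subunit. Spearman's rho of FPKM over the 75 genes lay between 0.861 (control-labelled replicates 1 and 3) and 0.992 (siRBM47-labelled replicates 2 and 3), where the points of every pair share gene length and annotation.

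The most abundant transcripts were those of MRPL41 and MRPL14. MRPL41, a protein found in mitochondria and not in bacterial ribosomes, averaged 155.6 ± 1.72 FPKM in siRBM47-labelled and 124.3 ± 53.9 FPKM in control-labelled libraries (SD, n = 3 each). MRPL14, a conserved protein of the face that meets the small subunit, averaged 135.0 ± 4.64 FPKM in siRBM47-labelled and 138.6 ± 42.1 FPKM in control-labelled libraries. MRPL18, a protein of the central protuberance, averaged 83.1 ± 6.95 FPKM in siRBM47-labelled and 102.1 ± 44.8 FPKM in control-labelled libraries. For each of these 3 genes control-labelled replicate 3 was the lowest of the 6 libraries, control-labelled replicates 1 and 2 also differed from each other, and neighbours in the order were not separated beyond the control spread.

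The least abundant were MRPL38, MRPS24, MRPS17 and MRPL53. MRPL38 averaged 0.169 ± 0.056 FPKM in siRBM47-labelled and 0.348 ± 0.102 FPKM in control-labelled libraries (SD, n = 3 each, as for the next 3 genes). MRPS24 averaged 0.969 ± 0.382 FPKM in siRBM47-labelled and 1.09 ± 0.100 FPKM in control-labelled libraries. MRPS17 averaged 1.28 ± 0.184 FPKM in siRBM47-labelled and 0.792 ± 0.114 FPKM in control-labelled libraries, and MRPL53 averaged 1.20 ± 0.544 FPKM in siRBM47-labelled and 0.967 ± 0.157 FPKM in control-labelled libraries. All 4 share at least 20% of their exon bases with another annotated gene on the same strand, as do MRPL12, MRPL33 and MRPS28, and the median over these 7 genes was 1.09 FPKM. The overlap was 68.2% for MRPL12, 45.2% for MRPL53 (with CCDC142), 37.5% for MRPL38, 27% for MRPS17 (with NIPSNAP2 and a further gene) and 23.2% for MRPS24 (with the readthrough gene URGCP-MRPS24). How reads in shared exons were assigned is not stated in the labels, so the levels of these 7 genes are uncertain. A further 7 members share at least 20% of their exon bases with a gene on the opposite strand, MRPS18A and MRPS18C among them, and the library kit does not mark strand.

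MRPL30 of the large subunit was the only one outside the count minimum, with 0 counts in each of the 6 libraries, which allows up to 3 counts in each. MRPL30 shares 19.5% of its exon bases with other genes on the same strand. Whether the assignment of reads has a part in its 0 counts was not tested, so they do not show that the gene is silent. Just inside the count minimum was MRPL38, with 9, 17 and 12 counts in siRBM47-labelled and 19, 34 and 22 counts in control-labelled libraries. Next came MRPL53, with 20, 23 and 44 counts in siRBM47-labelled and 18, 27 and 22 counts in control-labelled libraries. MRPS17 followed, with 42, 55 and 51 counts in siRBM47-labelled and 27, 25 and 36 counts in control-labelled libraries. The other 72 members had higher mean counts, and 74 of 75 reached 10 counts in all 6 libraries. MRPL45 and MRPS21 were not analysed here.

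**Figure D2:**
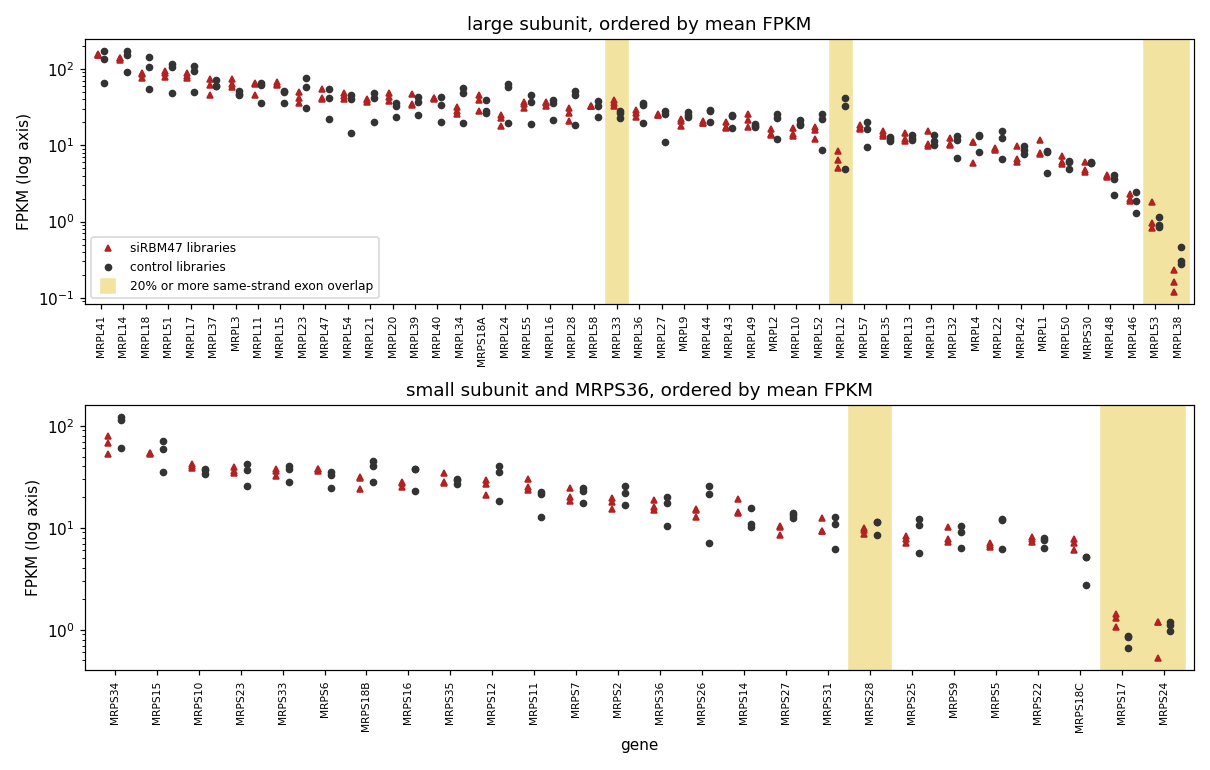
FPKM of each gene in every library on a log axis, large subunit above and small subunit with MRPS36 below, ordered by mean, with siRBM47-labelled libraries as triangles to the left and control-labelled libraries as circles to the right. Shaded genes share 20% or more of their exon bases with another gene on the same strand; 4 of these 7 form the low end, from 0.259 to 1.09 FPKM.

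The genes lie on 21 chromosomes, and promoters are shown for some whose log2 differences lay towards the ends of the range. RefSeq windows on GRCh38.p14, from 250 bases before to 50 bases after a transcript's start, were matched for 66 of 75 members. The 150 bases before the start, 5′ to 3′ on the gene's strand, follow for 3 members that were among the lowest log2 differences of their subunits (MRPL12, MRPL24, MRPS34) and 3 among the highest of the large subunit (MRPL20, MRPL3, MRPL33). Capitals mark matches on either strand to CCGGAAG, a core recognised by ETS factors. None of the 6 stretches holds a match to the other motifs marked, YY1 and NRF1. MRPS5 (log2 difference -0.59), MRPS17 (0.68) and MRPS18C (0.66) lay further out in the small subunit but are not shown. The stretches of MRPS5 and MRPS17 hold none of these motifs, and that of MRPS18C holds an NRF1 match. The 6 stretches shown therefore give no comparison of motifs between the ends of the range.
MRPL12, chr17:81703217-81703366, plus strand: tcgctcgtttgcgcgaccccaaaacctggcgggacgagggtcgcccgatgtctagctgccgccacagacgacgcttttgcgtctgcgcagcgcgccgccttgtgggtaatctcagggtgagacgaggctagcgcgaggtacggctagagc
MRPL24, chr1:156741089-156741238, minus strand: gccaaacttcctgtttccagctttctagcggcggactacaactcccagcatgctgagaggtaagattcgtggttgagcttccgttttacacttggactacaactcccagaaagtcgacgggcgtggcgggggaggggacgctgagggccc
MRPS34, chr16:1773135-1773284, minus strand: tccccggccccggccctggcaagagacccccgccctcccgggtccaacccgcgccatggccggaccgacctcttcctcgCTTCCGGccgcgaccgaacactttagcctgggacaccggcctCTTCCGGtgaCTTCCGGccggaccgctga
MRPL20, chr1:1407294-1407443, minus strand: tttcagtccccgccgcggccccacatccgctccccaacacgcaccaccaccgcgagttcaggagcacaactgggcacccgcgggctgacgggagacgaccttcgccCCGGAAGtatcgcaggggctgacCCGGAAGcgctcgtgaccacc
MRPL3, chr3:131502972-131503121, minus strand: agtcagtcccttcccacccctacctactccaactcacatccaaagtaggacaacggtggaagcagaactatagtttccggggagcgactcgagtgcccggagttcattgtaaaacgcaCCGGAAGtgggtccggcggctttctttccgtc
MRPL33, chr2:27771569-27771718, plus strand: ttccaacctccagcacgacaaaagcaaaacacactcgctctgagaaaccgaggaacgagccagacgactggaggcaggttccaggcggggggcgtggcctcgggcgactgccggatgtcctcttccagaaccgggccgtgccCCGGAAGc

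Over the whole windows, CCGGAAG occurred on either strand in those of 28 of 66 members (42.4%), against 22% of 10032 tested protein-coding genes and 12.2% of 27305 genes with a window. The YY1 core ATGGCGGC was found for 19 members (28.8%), against 7.47% of tested and 3.67% of all genes. Of its 21 occurrences in members, 17 lay after the start, and all 17 were on the gene's own strand. The core begins with ATG, and whether these 17 lie in coding sequence was not tested. The NRF1 core CGCATGCG was found for 3 members (4.55%), against 4.49% of tested genes. The E-box CACGTG occurred in 12.1% of members and 12.7% of tested genes, TATAAA in 4.55% and 8.81%, and the GC box GGGCGG in 62.1% and 77.1%. Of the ETS matches, 1 overlapped a GC box. The median log2 difference, siRBM47 over control, was 0.07 over members with CCGGAAG and -0.05 over members without it. These matches describe letters in a window and are not shown to be bound.

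Among the 49 proteins of the large subunit, 27 genes had a positive and 22 a negative log2 difference, with a median of 0.02, and 0 passed the adjusted threshold. At the stalk, which recruits translation factors to the ribosome, the MRPL12 transcript separated the libraries most. MRPL12, the flexible stalk protein, had 5.25, 8.80 and 6.54 CPM in siRBM47-labelled replicates 1 to 3, against 43.2, 34.1 and 5.16 CPM in control-labelled replicates 1 to 3. The siRBM47-labelled libraries were all far below control-labelled replicates 1 and 2, but control-labelled replicate 3 was lower still, so the groups overlapped. MRPL12 shares 68.2% of its exon bases with another gene on the same strand, so its counts and its difference carry the uncertainty named above. The log2 difference was -2.0 (SE 0.61, 95% interval -3.37 to -0.63, adjusted p = 0.166). Without control-labelled replicate 3 it was -2.49 (adjusted p = 1.24e-05), and with all 6 libraries and no filter on low counts the adjusted p was 7.56e-10. That unfiltered fit called 804 genes, against 32 in the main fit. The other settings with all 6 libraries gave adjusted p-values from 0.167 (RLE factors) to 0.355 (limma-voom). Leaving out any other library gave 0.323 to 0.452.

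The other proteins of the stalk did not share this pattern. MRPL10, the stalk's anchor, had 37.1, 47.0 and 39.3 CPM in siRBM47-labelled libraries, against 60.1, 52.9 and 51.3 CPM in control-labelled libraries. All siRBM47-labelled libraries were below all control-labelled ones, with a log2 difference of -0.41 (SE 0.18, adjusted p = 0.308). MRPL11, at the stalk's base, had 115.9, 164.9 and 167.4 CPM in siRBM47-labelled libraries, against 167.7, 155.9 and 93.6 CPM in control-labelled libraries, with overlapping groups and a log2 difference of 0.10 (adjusted p = 0.876).

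MRPL24, which binds near the tunnel's exit, had 30.4, 43.0 and 38.3 CPM in siRBM47-labelled libraries, against 107.1, 97.8 and 33.6 CPM in control-labelled libraries. Again control-labelled replicate 3 sat among the siRBM47-labelled libraries. The log2 difference was -1.09 (SE 0.38, adjusted p = 0.208), and it was -1.46 without that replicate (adjusted p = 0.000108). With all 6 libraries and no filter on low counts the adjusted p was 0.000766. The other settings with all 6 libraries gave adjusted p-values from 0.0568 (DESeq2) to 0.296 (limma-voom). Leaving out any other library gave 0.3585 to 0.518.

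MRPL3, a core protein of early assembly, had 198.2, 158.9 and 171.4 CPM in siRBM47-labelled libraries, against 141.3, 129.6 and 127.4 CPM in control-labelled libraries. The groups did not overlap, and the siRBM47-labelled libraries were the higher ones (log2 difference 0.41, SE 0.17, adjusted p = 0.289). MRPL20, which helps to fold the large ribosomal RNA in bacteria, had 107.5, 123.2 and 133.8 CPM in siRBM47-labelled libraries, against 102.2, 91.4 and 67.4 CPM in control-labelled libraries. The groups were separate here too, though by little between siRBM47-labelled replicate 1 and control-labelled replicate 1 (log2 difference 0.48, SE 0.21, adjusted p = 0.290).

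MRPL33 and MRPL15, both with bacterial homologues, were likewise higher in every siRBM47-labelled library. MRPL33 had 50.8, 55.3 and 61.1 CPM in siRBM47-labelled libraries, against 43.3, 41.7 and 35.5 CPM in control-labelled libraries (log2 difference 0.47, SE 0.18, adjusted p = 0.247). MRPL15 had 75.7, 74.0 and 80.8 CPM in siRBM47-labelled libraries, against 62.5, 60.7 and 43.4 CPM in control-labelled libraries (log2 difference 0.47, SE 0.20, adjusted p = 0.281). MRPL2, which lies beside the catalytic centre, had 35.4, 41.6 and 34.2 CPM in siRBM47-labelled libraries, against 65.9, 57.5 and 31.5 CPM in control-labelled libraries. Its siRBM47-labelled libraries lay between control-labelled replicate 3 and the other controls, at a log2 difference of -0.48 (SE 0.27, adjusted p = 0.422) and, without that replicate, of -0.73 (adjusted p = 0.00764).

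Of the other large-subunit proteins singled out for their roles, MRPL1, MRPL4, MRPL27, MRPL36, MRPL44, MRPL57 and MRPL58 had adjusted p-values of 0.40 to 0.928 and groups that overlapped. The log2 difference was 0.40 for MRPL1, of the stalk where spent tRNA leaves, -0.32 for MRPL4, of the exit tunnel, 0.23 for MRPL27, which reaches towards the catalytic centre, and -0.19 for MRPL36. It was -0.37 for MRPL44, a protein related to RNase III, 0.14 for MRPL57 and 0.05 for MRPL58, a peptidyl-tRNA hydrolase that rescues stalled ribosomes and is itself built into the large subunit. MRPS30 and MRPS18A carry small-subunit names but belong to the large subunit, with log2 differences of -0.23 (adjusted p = 0.589) and 0.26 (adjusted p = 0.636). Those of the abundant MRPL41, MRPL14 and MRPL18 were 0.32, -0.04 and -0.30. MRPL38, of the central protuberance, had a log2 difference of -1.04 (SE 0.45, adjusted p = 0.292) with groups that did not overlap, but on 9 to 34 counts per library.

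**Figure D3:**
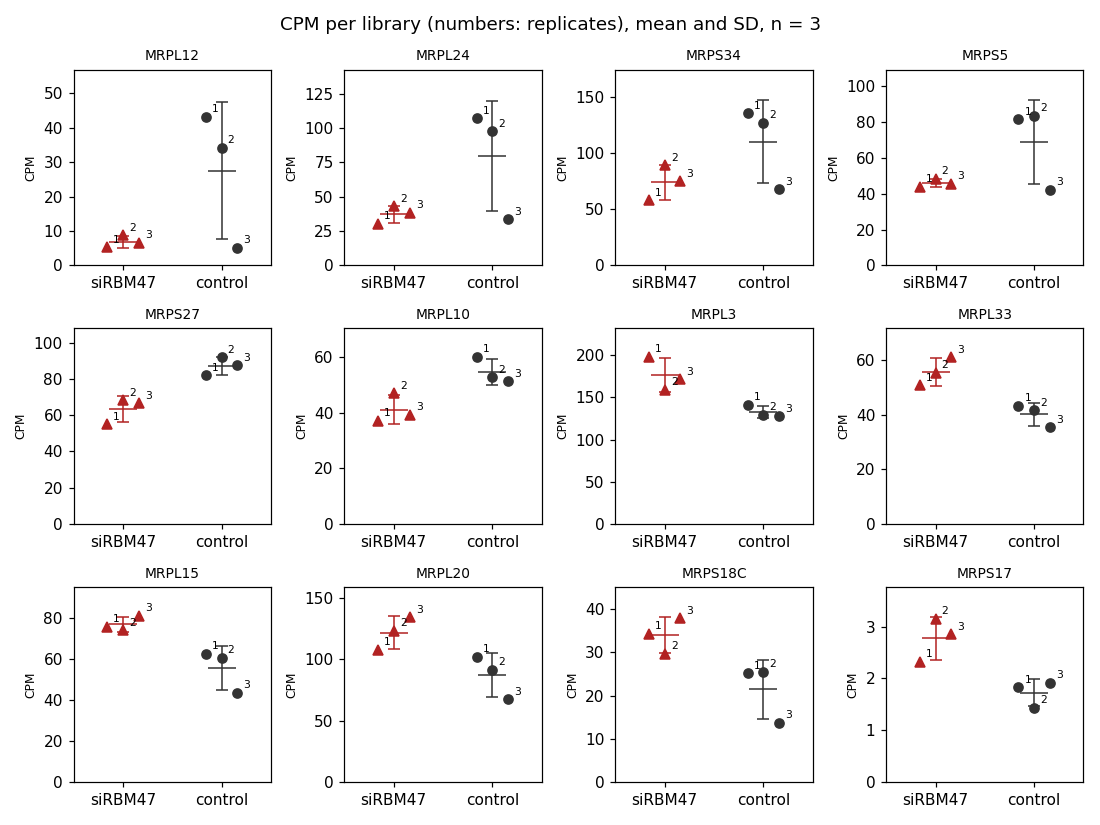
CPM of 12 genes in each library, with siRBM47-labelled libraries as triangles on the left and control-labelled libraries as circles on the right, numbered by replicate; lines and bars are means and SD (n = 3), and all axes start at 0. In MRPL12, MRPL24, MRPS34 and MRPS5 control replicate 3 lies with or near the siRBM47-labelled libraries, while in the other 8 genes the groups do not overlap.

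Among the 25 proteins of the small subunit, 11 genes had a positive and 14 a negative log2 difference, with a median of -0.04, and 0 passed the adjusted threshold. MRPS5, which lies where the messenger enters, had 43.9, 48.3 and 45.5 CPM in siRBM47-labelled libraries, against 81.4, 83.6 and 42.1 CPM in control-labelled libraries. MRPS34, which is specific to mitochondria and the most abundant of the small subunit, had 57.7, 88.9 and 74.7 CPM in siRBM47-labelled libraries, against 135.4, 127.0 and 67.7 CPM in control-labelled libraries. In both genes control-labelled replicate 3 was near the siRBM47-labelled libraries and far below the other controls. The log2 difference of MRPS5 was -0.59 (SE 0.26, adjusted p = 0.307) and, without that replicate, -0.85 (adjusted p = 0.00197). That of MRPS34 was -0.58 (SE 0.28, adjusted p = 0.353) and, without that replicate, -0.83 (adjusted p = 0.00564).

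MRPS27, a pentatricopeptide-repeat protein, had 55.0, 68.3 and 66.5 CPM in siRBM47-labelled libraries, against 82.1, 91.8 and 87.6 CPM in control-labelled libraries. Here all 3 control-labelled libraries were alike and the groups did not overlap, with a log2 difference of -0.46 (SE 0.18, adjusted p = 0.247) and nearly the same value, -0.46, without control-labelled replicate 3 (adjusted p = 0.0568).

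The S18 family, whose members in human mitochondria are products of separate genes and occupy different places, spread over both directions. MRPS18C, the homologue that keeps the bacterial position, had 34.3, 29.7 and 37.8 CPM in siRBM47-labelled libraries, against 25.2, 25.5 and 13.7 CPM in control-labelled libraries. The groups did not overlap (log2 difference 0.66, SE 0.26, adjusted p = 0.257). MRPS18B, specific to mitochondria in its place on the small subunit, had 45.3, 60.1 and 57.6 CPM in siRBM47-labelled libraries, against 86.9, 77.7 and 54.1 CPM in control-labelled libraries. Its groups overlapped through control-labelled replicate 3 (log2 difference -0.42, adjusted p = 0.393), and without it the difference was -0.60 (adjusted p = 0.0229).

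MRPS17, with a bacterial homologue, had 2.32, 3.14 and 2.85 CPM in siRBM47-labelled libraries, against 1.83, 1.44 and 1.92 CPM in control-labelled libraries, without overlap (log2 difference 0.68, SE 0.33, adjusted p = 0.356). MRPS12, of the decoding centre, had a log2 difference of -0.29 (adjusted p = 0.659) and, without control-labelled replicate 3, of -0.56 (adjusted p = 0.0373). The differences of MRPS28, MRPS15, MRPS10 and MRPS24 were -0.16, -0.04, 0.15 and -0.17. MRPS36, which despite its name is known as a subunit of the 2-oxoglutarate dehydrogenase complex and belongs to neither ribosomal subunit, had a difference of 0.07 (SE 0.25, adjusted p = 0.924).

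**Figure D4:**
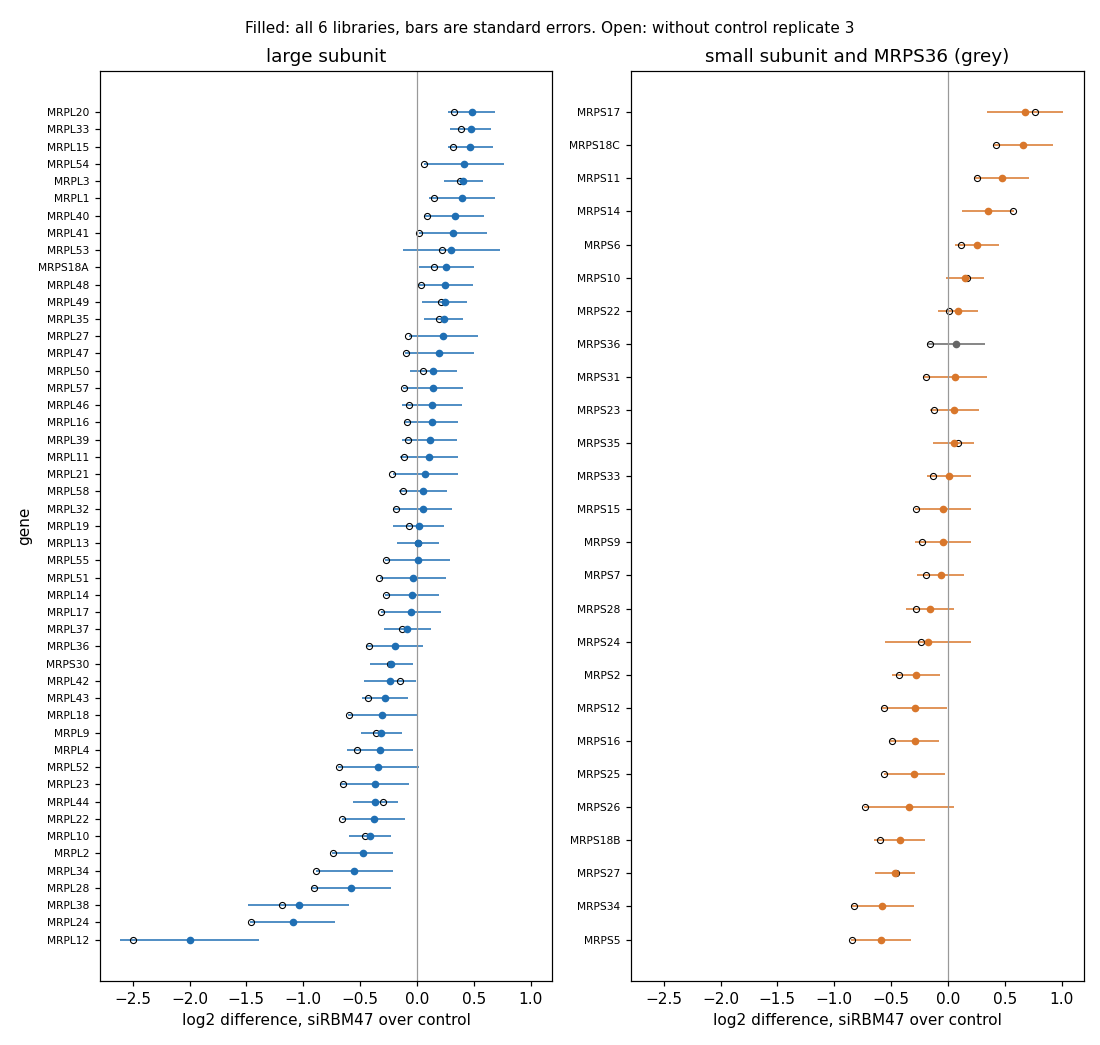
Log2 difference, siRBM47 over control, of all 75 genes with its standard error from all 6 libraries (filled) and its value without control replicate 3 (open), large subunit on the left and small subunit with MRPS36 on the right. Filled points run from -2.0 to 0.68, and for most genes the open point lies to the left of the filled one.

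The groups did not overlap, with siRBM47-labelled libraries higher, for 10 members (13.3%, beside 11.6% of all genes tested), and with them lower for 4 members (5.33%, beside 11%). The higher ones were MRPL3, MRPL15, MRPL20, MRPL33, MRPL35, MRPS6, MRPS10, MRPS11, MRPS17 and MRPS18C, and the lower ones MRPL9, MRPL10, MRPL38 and MRPS27. All 10 of the higher ones have a homologue in bacterial ribosomes, as do 44 of the members, against 0 of 30 members specific to mitochondria. Of the 4 lower ones, 2 are among the 44 and 2 among the 30. The median log2 difference was -0.04 over the 44 and 0.05 over the 30, and no test of this split was made.

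Leaving out control-labelled replicate 3 changed the picture of the module. That library was below the mean of the other controls for 67 of 75 members, so leaving it out by itself lowers their siRBM47 over control differences. With 3 siRBM47-labelled and 2 control-labelled libraries, 16 members fell (21.3%, beside 11.2% of 14889 genes tested in that fit) and 1 member rose (1.33%, beside 9.97%). The members that fell were MRPL2, MRPL12, MRPL18, MRPL22, MRPL23, MRPL24, MRPL28, MRPL34, MRPL52, MRPS5, MRPS12, MRPS16, MRPS18B, MRPS25, MRPS26 and MRPS34, and MRPS14 rose; those not described above are named because of their values in this fit. MRPL28, a homologue of a bacterial protein, had 49.5, 75.3 and 64.2 CPM in siRBM47-labelled libraries, against 125.9, 110.5 and 45.3 CPM in control-labelled libraries (log2 difference without control-labelled replicate 3 -0.91, adjusted p = 0.00355). MRPS14 had 36.0, 37.7 and 49.3 CPM in siRBM47-labelled libraries, against 26.5, 28.6 and 41.0 CPM in control-labelled libraries (0.57, adjusted p = 0.0449 in that fit).

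In the same fit the members' median log2 difference was -0.18, against 0.02 over all genes tested, with 52 negative and 23 positive differences. It was -0.13 over the large subunit, with 9 lower and 0 higher genes past the threshold, and -0.23 over the small subunit, with 7 lower and 1 higher. In all 16 members that fell, control-labelled replicate 3 was below control-labelled replicates 1 and 2, as the siRBM47-labelled libraries were. The position of the siRBM47-labelled libraries is no separate result, because these members were picked as lower than those 2 controls. That joint position was found for 31 members in all (41.3%), against 21.1% of all genes. Leaving out any other library gave 0 members past the threshold in either direction.

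Base composition moved with both differences examined here, which share the control-labelled libraries and are therefore not separate observations. GC content and length are those of each gene's longest annotated transcript. Transcript length moved with the difference of control-labelled replicate 3 from the other controls, and hardly with the siRBM47 over control difference. Across the 75 genes, Pearson's r between the GC content of the transcript and the log2 difference of control-labelled replicate 3 from control-labelled replicates 1 and 2 was -0.46 (Spearman's rho -0.40), and over 14241 genes it was -0.27; genes of a library share its preparation and are not independent. Between GC content and the siRBM47 over control difference, r was -0.37 over the members and -0.25 over all genes. For transcript length, r with the difference of control-labelled replicate 3 from the other controls was 0.35 over the members and 0.26 over all genes, and r with the siRBM47 over control difference was 0.06 over the members and 0.01 over all genes. The members' median transcript length was 1727 bases, against 3412 bases over all genes, and their median GC content was 47.7%, against 48.0% over all genes. In 3 equal groups of 25 members with low, middle and high GC content, the median siRBM47 over control difference was 0.09, -0.04 and -0.28, and that of control-labelled replicate 3 from the other controls was -0.29, -0.75 and -0.95. The part of base composition and length in the results was not tested.

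Other components of mitochondrial translation were counted in lists chosen by role, and in each of them 0 genes passed the adjusted threshold in either direction. The 5 mitoribosomal proteins with other symbols had a median log2 difference of -0.16, at -0.60 for AURKAIP1, -0.17 for GADD45GIP1, -0.16 for CHCHD1, -0.05 for PTCD3 and -0.0028 for DAP3. Without control-labelled replicate 3, AURKAIP1 (-0.93, adjusted p = 0.00398) and GADD45GIP1 (-0.46, adjusted p = 0.0391) fell. The RNAs of the ribosome itself, MT-RNR1 and MT-RNR2, had the smallest p of 15 mitochondrially encoded genes. MT-RNR1 had 272.0, 310.1 and 227.8 CPM in siRBM47-labelled libraries, against 707.3, 490.8 and 379.6 CPM in control-labelled libraries, without overlap (log2 difference -0.96, adjusted p = 0.119). MT-RNR2 differed by -0.76 (adjusted p = 0.129), and the list's median was -0.35. Without control-labelled replicate 3 the median was -0.61, and 8 of the 15 genes fell and 0 rose, beside 11.2% and 9.97% of all genes.

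Factors that act on the ribosome were close to 0 as lists. The median was -0.05 over 25 assembly factors, with a smallest adjusted p of 0.327, and 0.08 over 16 translation factors, with 0.236. Among translation factors the mitochondrial initiation factor MTIF3 had a log2 difference of 0.55 (adjusted p = 0.236) and the elongation factor TUFM -0.55 (adjusted p = 0.258). The median was -0.09 over 16 mitochondrial aminoacyl-tRNA synthetases, 0.07 over 11 genes of mitochondrial DNA transcription and maintenance, -0.10 over 10 regulators of mitochondrial biogenesis and 0.03 over 22 genes of protein import. Without control-labelled replicate 3 the medians were -0.07 for assembly factors (3 lower, 0 higher), 0.16 for translation factors (2 lower, 1 higher), -0.12 for synthetases (2 lower, 0 higher) and -0.17 for mitochondrial DNA transcription and maintenance (1 lower, 1 higher). They were -0.03 for biogenesis regulators (1 lower, 0 higher) and -0.15 for protein import (4 lower, 0 higher) in that fit. Among all genes tested in it, 11.2% were lower and 9.97% higher, and whether these short lists depart from those shares was not tested.

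Cytosolic ribosomal protein genes and nuclear genes of oxidative phosphorylation lay in a like position across control-labelled libraries. Control-labelled replicate 3 held the lowest level of 62 of 77 cytosolic ribosomal protein genes and of 46 of 74 nuclear oxidative phosphorylation genes, beside 51 of the 75 members. The median difference of that library from the other controls was -0.86 and -0.70 over these lists. Their median siRBM47 over control difference was -0.19 for the cytosolic ribosomal proteins and -0.10 for the oxidative phosphorylation genes. Without control-labelled replicate 3 these were -0.42, with 39 genes lower and 1 higher past the threshold, and -0.27, with 24 lower and 1 higher. Of all genes tested in that fit, 11.2% were lower and 9.97% higher.

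**Figure D5:**
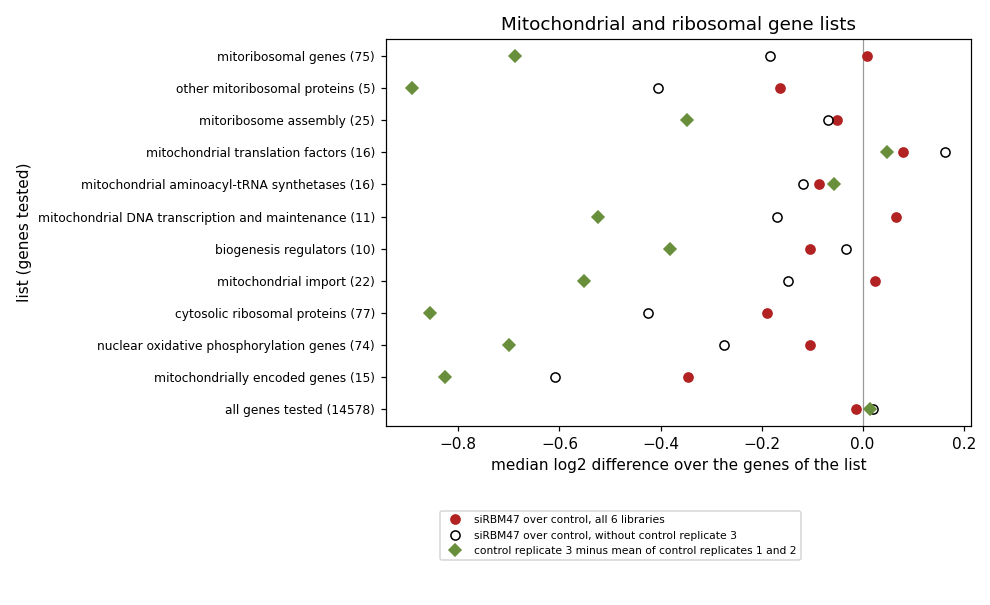
Median log2 difference over the genes of each list (number tested in brackets): siRBM47 over control from all 6 libraries (red), the same without control replicate 3 (open) and control replicate 3 minus the mean of control replicates 1 and 2 (diamonds). The 75 mitoribosomal genes stand at 0.01, -0.18 and -0.69, and all genes tested stand at -0.01, 0.02 and 0.01.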

How the data were processed

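The submitters' processing notes name HISAT2 2.0.5, featureCounts 1.5.0-p3 and the build hg38; which annotation and strand setting were used is not given there. Each deposited table pairs a column of raw counts with one of FPKM, per the file headers. FPKM were used for levels between genes and for no test. Gene symbols were looked up by identifier, with GENCODE release 29 as a second source, and 5567 identifiers have none; positions, overlaps and GC content are from GENCODE 29 (GRCh38), promoters from RefSeq.

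Genes kept by filterByExpr (minimum count 10; 14578 genes) were tested with edgeR 4.0.16 in R 4.3.3 (quasi-likelihood, TMM, no block, Benjamini-Hochberg over all genes, threshold 0.05). SE is the absolute log2 difference over the square root of F. Alternatives were RLE and upper-quartile factors, DESeq2 1.42.0, limma-voom 3.58.1, no filter, a minimum of 50, a block on the replicate number and leaving out each library. On simulated counts for the 14578 genes of this comparison, 20% of 2-fold and 83% of 4-fold changes were recovered, and 3 of 106 calls were unchanged genes. Members, roles, lists and the rule for named genes (smallest p, roles, most and least abundant) were chosen with earlier results of these data known. Floors of 3 counts cover counting error only. PECAM1, TIMM23, MRM1 and RCC1L of the lists were not analysed here.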

Additional observations from a re-analysis of the deposited data

How the results depend on the processing

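The members' median log2 difference of 0.01 stayed between 0.01 and 0.03 in fits of all 6 libraries and between -0.18 and 0.15 with 1 library left out. Members past the threshold numbered 0 with RLE or upper-quartile factors, DESeq2, limma-voom, a minimum count of 50 and the replicate block. Without a filter 2 were lower, MRPL12 and MRPL24, and leaving out 1 library gave 0 to 16 lower and 0 to 1 higher, all of them without control replicate 3; the cause was not tested. Members at an unadjusted p under 0.05 numbered 2 to 29 with 1 library left out, against 11. All genes called numbered 532 by DESeq2, 804 without a filter and 0 to 3156 with 1 library left out, against 32. Genes called in the companion lists numbered 9 by DESeq2, 13 without a filter and 0 to 90 with 1 library left out, against 0. The difference of RBM47 reversed to 0.10 with limma-voom and ran from -0.38 to 0.76 with 1 library left out.

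Over 36 named members, 437 of 465 values kept direction and side of the threshold, 18 reversed and 10 passed the threshold. With limma-voom MRPL14 was at 0.0067 and MRPS15 at 0.017. With 1 library left out, the differences ran from -0.11 to 0.27 for MRPL11, -0.27 to 0.15 for MRPL14, -0.60 to 0.034 for MRPL18, -0.080 to 0.47 for MRPL27, -0.072 to 0.38 for MRPL46, -0.12 to 0.52 for MRPL53, -0.11 to 0.40 for MRPL57, -0.12 to 0.21 for MRPL58, -0.28 to 0.19 for MRPS15, -0.34 to 0.13 for MRPS24 and -0.16 to 0.27 for MRPS36.

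The deviations of same-numbered libraries from their group means had correlations of -0.036, 0.127 and 0.116, and 3 of 6 libraries were closest to the library of their own number. The highest correlation of any pair, 0.200, was between siRBM47-labelled replicate 2 and control-labelled replicate 1. With 3 libraries per group these values cannot tell whether libraries of the same number share a culture or a batch. With the replicate block, 39 genes and 0 members were called, 5 members had an unadjusted p under 0.05, and RBM47 stood at 0.12, MRPL14 at 0.0036 and MRPS15 at 0.014.

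At the gene-wise spread and the size of these groups, 20% of simulated 2-fold changes, placed at random among all genes tested, were recovered. Each gene was drawn independently, so no simulated library stood apart across many genes as control replicate 3 did. The share was not computed for the members. Low counts limit MRPL38, MRPL53 and MRPS17.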

Other observations

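Of the members, 28 start within 1000 bases of a protein-coding gene on the opposite strand, and 7 of these do so beside another member or a gene of the lists. MRPL46 and MRPS11 start 34 bases apart on chromosome 15. MRPL46 had 12, 15.1 and 12.7 CPM in siRBM47-labelled libraries, against 12.1, 15.8 and 8.52 CPM in control-labelled libraries, and MRPS11 had 90.5, 99.2 and 116.6 CPM in siRBM47-labelled libraries, against 87.9, 83.4 and 49.5 CPM in control-labelled libraries. Their log2 differences were 0.13 (SE 0.26, adjusted p = 0.846) and 0.47 (SE 0.24, adjusted p = 0.377).

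MRPL36 starts 34 bases from NDUFS6, a subunit of respiratory complex I, with log2 differences of -0.19 for MRPL36 (adjusted p = 0.740) and -0.28 for NDUFS6 (adjusted p = 0.721). MRPL47 starts 36 bases from NDUFB5, another subunit of complex I. Control-labelled replicate 3 was below the other controls by 1.12 on the log2 scale for MRPL47 and above them by 0.32 for NDUFB5.

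The tables also held 73 pseudogenes named after these genes. Of these, 60 had 0 counts in all 6 libraries, and the highest count of any of them in a library was 6.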
